A study of Mus musculus with 6 samples.

Results

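The Serpina1 and Serpina3 genes are clustered antiprotease genes of the mouse, and 10 of them were taken by symbol from a table of 19764 genes: Serpina1a, Serpina1b, Serpina1c, Serpina1d and Serpina1e, and Serpina3c, Serpina3g, Serpina3k, Serpina3m and Serpina3n. Their transcripts were measured by RNA sequencing in primary hepatocytes of Bl6/N mice kept for 16 h in a low-serum starvation medium (5 mM glucose). All 6 cultures were then held for 8 h with corticosterone at 1 µM, which binds the glucocorticoid receptor, and WY-14643 at 10 µM, which activates PPARα. The 3 Control libraries had vehicle in addition and the 3 TNF libraries had 1 ng/ml TNF, so no library shows the genes without the steroid or without the PPARα ligand. The mice's age and number are not stated, nor whether replicates were separate animals, so p-values measure the spread between these libraries, which may be technical.

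Serpins are protease inhibitors that offer an exposed reactive centre loop as bait. A protease that cuts the loop stays bound to the serpin, and both are cleared. The Serpina1 genes encode forms of α1-antitrypsin, which hepatocytes secrete into plasma. α1-antitrypsin is known as an inhibitor of neutrophil elastase and other serine proteases. Which proteases each of the 5 mouse forms inhibits was not examined here. The Serpina3 genes are the expanded mouse counterparts of α1-antichymotrypsin. Many hepatic serpins are acute phase proteins, whose transcripts respond in the liver to cytokines, often together with glucocorticoid.

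Both groups lie on chromosome 12 (coordinates of the mouse build mm10). The Serpina1 members spanned bases 103728156 to 103956897 and all lay on the minus strand. The Serpina3 members spanned bases 104146907 to 104414329, 190009 bases further on. Serpina3c lay on the minus strand and Serpina3g, Serpina3k, Serpina3m and Serpina3n on the plus strand. For 9 of the 10 members the table counted reads over the whole gene span, introns as well as exons. The exception was Serpina3g, whose row covered 27391 bases and was counted over 20805 of them. The 6586 bases left uncounted were the span of its neighbour Serpina3f in GENCODE, which was not analysed here.

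The libraries held 17612060 to 25114289 reads over genes. Levels are CPM (reads scaled to library size), means are given ± SD of n = 3 libraries, and changes are differences of log2(CPM + 1), TNF minus Control. "Unpaired" is the limma fit with group as the only term, and "blocked" the limma fit that also holds the replicate number. A gene "rose" or "fell" where its blocked adjusted p was under 0.05. Same-numbered Control and TNF libraries deviated together across genes (r 0.783, 0.787 and 0.792), so values within a number are shown throughout. All 9 hepatocyte markers found in the table were above 1 CPM, with a summed level of 32813 to 53047 CPM.

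With TNF, no α1-antitrypsin transcript rose or fell, with estimates of -4.25% to -2.63% for the 5 genes. The members that fell were Serpina3m, with a change of -12.2%, and Serpina3n, with a change of -10.7%. In the blocked fit 2 of the 9 tested members fell and none rose. The blocked fit called 20.4% of all 12375 genes tested, 11.1% lower and 9.31% higher, so a count of 2 among 9 is to be read against that background. In the unpaired limma fit no member passed, either at an adjusted p of 0.05 or at an unadjusted p under 0.05. Unpaired limma-voom on the recovered reads also called 0 members. The unpaired limma fit called 0.428% of all genes tested, 0.356% higher and 0.0727% lower. The median change was -0.06 over the 9 tested members and -0.01 over all tested genes.

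Serpina1a stood at 211, 247 and 360 CPM in Control 1, 2 and 3 and at 215, 232 and 347 CPM in TNF 1, 2 and 3. Serpina1b stood at 812, 1032 and 1284 CPM in Control and 826, 933 and 1223 CPM in TNF. Serpina1c stood at 579, 859 and 959 CPM in Control and 584, 786 and 918 CPM in TNF. In these 3 genes both groups covered nearly the same range, and each TNF library lay next to its same-numbered Control library. Serpina1d stood at 377, 496 and 618 CPM in Control and 371, 465 and 597 CPM in TNF. Serpina1e, the most abundant of the group, stood at 3881, 3801 and 4678 CPM in Control and 3896, 3538 and 4471 CPM in TNF. Control 3 and TNF 3 were the highest library of their group in every one of the 5.

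**Figure D1:**
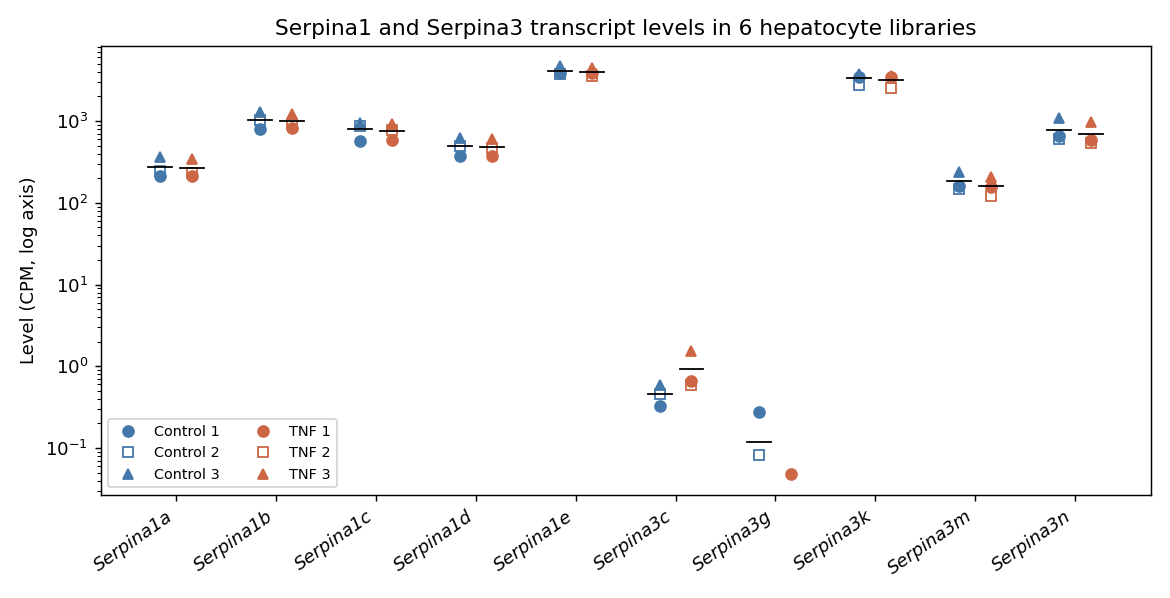
Level of each of the 10 members (CPM, log axis) in the 3 Control (blue) and 3 TNF (orange) libraries, with symbols for the replicate number and black lines for group means. The 2 groups overlap for every member but Serpina3c. Serpina3g libraries at 0 reads (1 Control, 2 TNF) are not drawn.

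None of the 5 α1-antitrypsin genes passed either test. Their log2 changes ran from -0.06 for Serpina1b to -0.04 for Serpina1a, with a median of -0.05. Blocked SEs lay between 0.03 and 0.04, and blocked adjusted p-values between 0.263 for Serpina1d and 0.480 for Serpina1a. The unpaired SE was 0.18 for Serpina1e and 0.24 for Serpina1a, and the unpaired adjusted p was 0.999 for each of the 5. Read gene by gene, the 95% intervals of the blocked fit reached from -9.82% to 2.82%, both for Serpina1e. The unpaired intervals were much wider. For Serpina1a the unpaired interval ran from -33.7% to 43.0%. These intervals bound the change and do not show that the levels were equal.

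The 5 Serpina1 genes are near copies of each other, which bears on how far reads can be assigned to one of them. Their coding sequences were 96.3% to 98.5% identical (10 pairs). Of the 100-base windows of the Serpina1c coding sequence, 61.8% occurred letter for letter in another member, against 57.8% for Serpina1a, 29.9% for Serpina1d, 28.0% for Serpina1b and 19.1% for Serpina1e. How the authors treated reads that fit several genes is not stated, so the split between these genes is uncertain. Their sum does not depend on that split if each read was given to a single gene. It would be short if such reads had been left out, and too high if they had been counted for several genes. The annotated Serpina1a frame of 1308 bases is longer at its 5′ end, and that part was left out here. Of 1239 coding bases compared, 86 differed among the 5 genes. The 60-base window with most differences held 18 of them, against a median of 4 per window. It covers bases 1101 to 1160 of the compared frame and includes the codons of the reactive centre loop, the stretch that decides which protease is inhibited. The stretches are shown because this is where the products differ most, 5′ to 3′ on the coding strand, from the GENCODE transcripts of build mm10. Capitals mark the bases at which the 5 genes are not all alike.
Serpina1a: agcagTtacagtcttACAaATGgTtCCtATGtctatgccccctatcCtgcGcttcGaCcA
Serpina1b: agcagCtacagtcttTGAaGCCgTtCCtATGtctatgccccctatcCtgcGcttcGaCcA
Serpina1c: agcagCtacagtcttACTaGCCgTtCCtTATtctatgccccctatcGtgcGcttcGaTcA
Serpina1d: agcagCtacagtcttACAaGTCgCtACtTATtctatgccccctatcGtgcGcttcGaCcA
Serpina1e: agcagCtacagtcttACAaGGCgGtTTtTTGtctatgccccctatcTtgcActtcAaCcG

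Summed over the 5 genes, the α1-antitrypsin transcripts stood at 5859, 6435 and 7897 CPM in Control and 5893, 5954 and 7556 CPM in TNF. This was 0.586% to 0.790% of the library sizes to which the authors had scaled. Those sizes were 0.963 to 1.03 times the reads over genes. The means were 6731 ± 1051 CPM in Control and 6468 ± 943 CPM in TNF. Within the replicate numbers the sum differed by 0.01, -0.11 and -0.06 on the log2 scale, less than the spread between the Control libraries. The make-up of the sum was nearly the same with and without TNF. Serpina1e supplied 66.2%, 59.1% and 59.2% of it in Control 1, 2 and 3 and 66.1%, 59.4% and 59.2% in TNF 1, 2 and 3. The largest shift of any Serpina1 share within a replicate number was 0.356 percentage points, while shares differed by up to 7.18 points among the 3 Control libraries. In a bulk sample fewer cells of a type and less RNA per cell cannot be told apart.

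**Figure D2:**
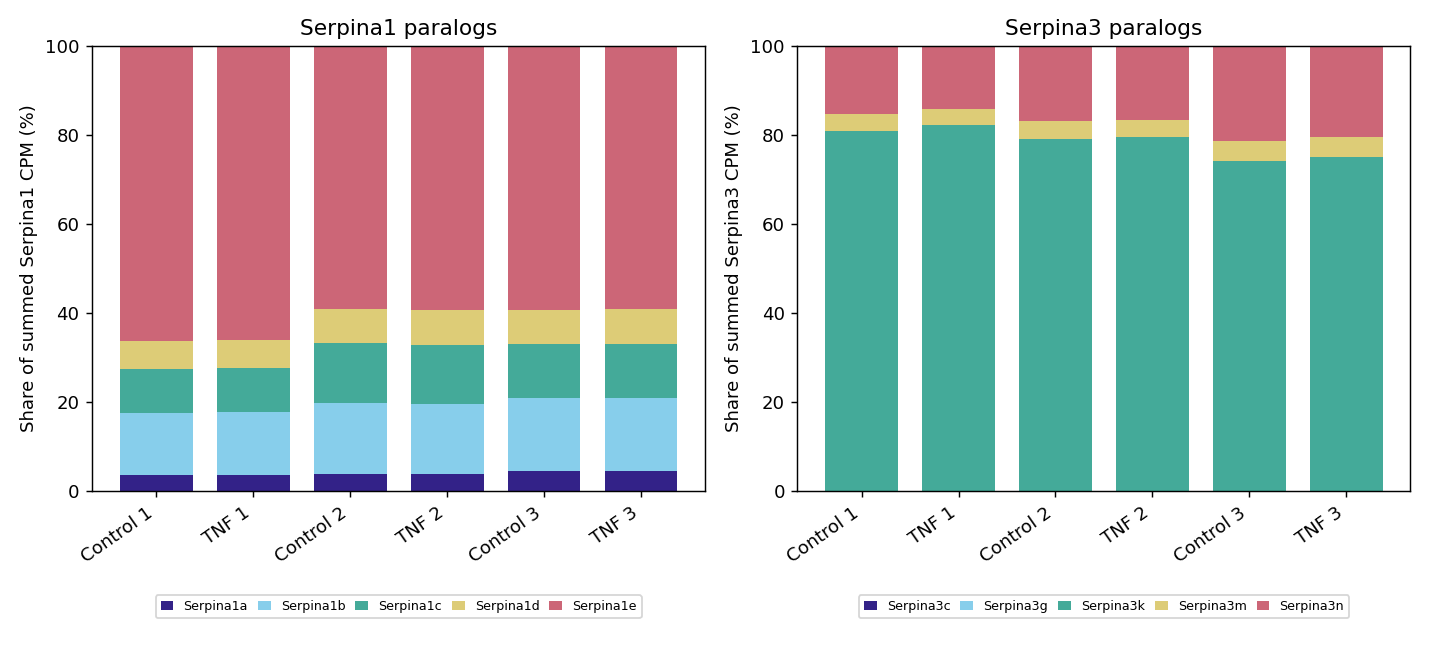
Share of each paralog in the summed CPM of the Serpina1 genes (left) and the Serpina3 genes (right), in percent, for each library, with same-numbered libraries side by side. Serpina1e supplies 59.1% to 66.2% of the Serpina1 sum, and Serpina3k 74.0% to 82.1% of the Serpina3 sum; Serpina3c and Serpina3g are too low to be seen.

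Serpina3k, which encodes contrapsin, an inhibitor of trypsin-like proteases, was the dominant transcript of the Serpina3 group. It stood at 3497, 2795 and 3802 CPM in Control and 3452, 2568 and 3544 CPM in TNF. Each TNF library was the lower of its number, and the groups overlapped. Its log2 change was -0.08, with a blocked SE of 0.04 and adjusted p of 0.206 and an unpaired SE of 0.20 and adjusted p of 0.998. The blocked 95% interval ran from -11.2% to 0.613%.

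Serpina3n, known as an acute phase transcript of liver and astrocytes, stood at 667, 596 and 1093 CPM in Control and 593, 536 and 971 CPM in TNF. The groups overlapped, since Control 3 and TNF 3 lay far above the other libraries, but each TNF library was lower than its Control partner. It fell by 0.16 on the log2 scale in the blocked fit (SE 0.03, adjusted p = 0.00159, 95% interval -0.230 to -0.097), a change of -10.7%. The differences within the numbers were -0.17, -0.15 and -0.17, with an SD of 0.00936. In the unpaired fit the SE was 0.29 and the adjusted p 0.996. In the authors' deposited table its adjusted p was 5.24e-09; that table put 15.2% of its 19764 genes under 0.05, and 3 of the 10 members (Serpina3c, Serpina3m and Serpina3n).

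Serpina3m, a close relative of Serpina3k, stood at 162, 147 and 240 CPM in Control and 156, 121 and 205 CPM in TNF. Here too the groups overlapped and each TNF library was the lower of its number. It fell by 0.19 on the log2 scale in the blocked fit (SE 0.04, adjusted p = 0.00554, 95% interval -0.278 to -0.097), a change of -12.2%. The differences within the numbers were uneven, at -0.05, -0.28 and -0.23. Their SD was 0.121, which is more than the blocked SE would lead one to think, because that fit draws each gene's spread toward the spread of genes of like abundance. The unpaired fit gave an SE of 0.23 and an adjusted p of 0.979. Without a filter on low counts the blocked adjusted p was 0.04999, close to the threshold. In the authors' deposited table it was 0.00796.

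**Figure D3:**
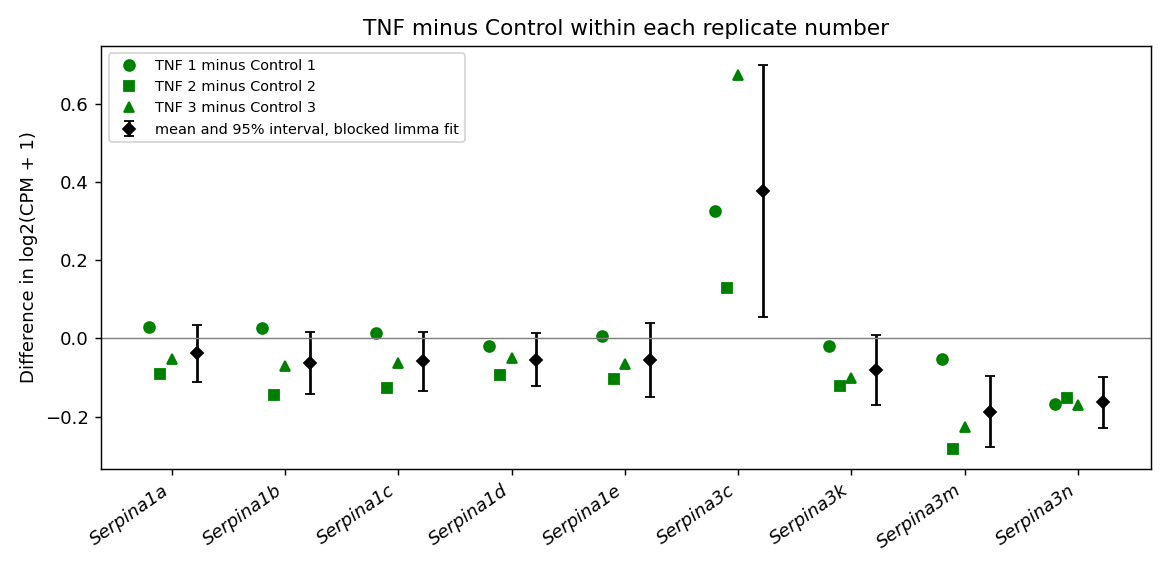
TNF minus Control difference in log2(CPM + 1) for the 9 tested members within replicate numbers 1, 2 and 3 (green symbols), with the mean and 95% interval of the blocked limma fit (black). For Serpina3n the 3 values lie together between -0.17 and -0.15; for Serpina3m they run from -0.28 to -0.05, and for Serpina3c from 0.13 to 0.67.

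A lower level in TNF in each of the 3 replicate numbers was seen for Serpina1d, Serpina3k, Serpina3m and Serpina3n. Among all tested genes 27.6% had that pattern. The other 4 Serpina1 genes were slightly higher in TNF 1 than in Control 1 and lower in TNF 2 and TNF 3.

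Serpina3c, which RefSeq lists as a kallikrein-binding protein, was near the limit of detection. It had 6, 11 and 12 reads in Control and 14, 11 and 31 reads in TNF, or 0.331, 0.455 and 0.584 CPM against 0.670, 0.590 and 1.53 CPM. It was the one member whose groups did not overlap, with Control 3 just under TNF 2. Among all tested genes 6.57% had every TNF library above every Control library. The log2 change was 0.38, with a blocked SE of 0.15 and adjusted p of 0.0981 and an unpaired SE of 0.22 and adjusted p of 0.803, so it passed neither test. This scale understates changes of low genes. As plain CPM ratios, TNF over Control was 2.02, 1.30 and 2.62 in numbers 1, 2 and 3. Without replicate number 3 the ratio of the means was 1.60. The authors' deposited table gave a log2 change of 1.00 with an adjusted p of 0.0161.

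Serpina3g, the intracellular serpin known as Spi2A, was barely detected. It had 5, 2 and 0 reads in Control and 1, 0 and 0 reads in TNF, at most 0.276 CPM, and was below the filter for testing. A count of 0 allows up to 3 reads, which correspond to 0.124 to 0.166 CPM in these libraries, for counting error only. No difference was detectable at this depth.

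Summed over its 5 members, the Serpina3 group stood at 4327, 3539 and 5136 CPM in Control and 4202, 3226 and 4721 CPM in TNF. The means were 4334 ± 799 and 4050 ± 759 CPM. Within the numbers the sum differed by -0.04, -0.13 and -0.12 on the log2 scale. The share of Serpina3k in this sum was higher in each TNF library than in its partner, by 1.30, 0.639 and 1.03 percentage points. The share of Serpina3n differed by -1.28, -0.225 and -0.715 points and that of Serpina3m by -0.0262, -0.417 and -0.332 points. Among the 3 Control libraries, shares in this sum differed by up to 6.81 points. The coding sequences of the 5 Serpina3 genes were 80.3% to 91.0% identical, further apart than those of the Serpina1 group. Of 100-base windows, 8.23% of those of Serpina3k and of Serpina3m and under 1% of those of the other 3 occurred in another member. For Serpina3n the share was 0.0866%.

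The range over replicate numbers was larger than the difference between treatments. For the 8 abundant members (all tested members but Serpina3c), the log2 range over the 3 Control libraries was 0.30 to 0.87, and the largest difference within any replicate number was 0.09 to 0.28. The range over Control was the larger value in 8 of 8. Control 3 and TNF 3 were the highest library of their group for all 8. The lowest library was number 1 for Serpina1a, Serpina1b, Serpina1c and Serpina1d and number 2 for Serpina1e, Serpina3k, Serpina3m and Serpina3n. Centred on their means over 6 libraries, Serpina1b and Serpina1d were the most alike pair of members, with a root mean square difference of 0.0487 on the log2 scale. Serpina3m and Serpina3n differed by 0.109, and Serpina1e was nearer to Serpina3k (0.119) than to any of its own cluster (0.172 to 0.251).

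**Figure D4:**
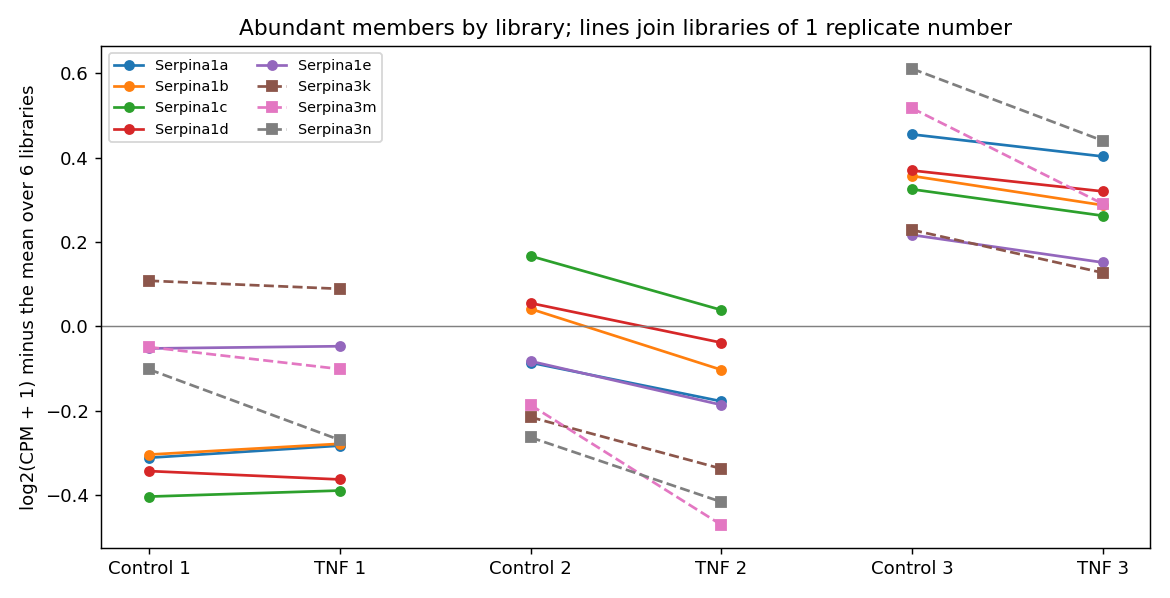
Levels of the 8 abundant members by library, as log2(CPM + 1) minus each gene's mean over the 6 libraries; lines join the Control and TNF library of 1 replicate number, solid for Serpina1 and dashed for Serpina3 genes. Number 3 is highest for all 8 genes, and each gene's full range over the Control libraries is larger than any of its steps from Control to TNF.

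Among all other tested genes, the pattern of Serpina3n over the 6 libraries was nearest to that of Tie1 (root mean square difference 0.0290), followed by Ceacam16 (0.0623). Serpina3m was nearest to Slc22a30 (0.0282), followed by Ptprb (0.0506), and Serpina3c to Gpc3 (0.0700), followed by Slc43a2 (0.0774). Tie1 and Ptprb encode a receptor and a receptor phosphatase of endothelial cells. Tie1 stood at 3.04, 2.81 and 5.60 CPM in Control and 2.68, 2.25 and 5.03 CPM in TNF. The 8 endothelial markers summed to 79.7, 94.3 and 150 CPM in Control and 75.6, 88.0 and 141 CPM in TNF. This sum was highest in number 3, as all 8 abundant members were, and lowest in number 1, where Serpina3n and Serpina3m were lowest in number 2. None of the 8 was at 0 in all libraries. Of the 7 endothelial markers tested, Stab2 fell (log2 -0.19, blocked adjusted p = 0.0348) and none rose. Of 10 macrophage markers, 9 stayed under 1 CPM in every library, and Cd68, which other cells also express, made up nearly all of the sum of 144 to 233 CPM. The 10 lymphocyte and neutrophil markers found in the table summed to at most 0.552 CPM, with Cd3g, Nkg7 and Ly6g at 0 in all libraries. The 7 stellate cell markers summed to 18.7 to 68.5 CPM, and of 5 tested Reln fell (log2 -0.38, blocked adjusted p = 0.0297) and none rose. Reln had means of 45.3 CPM in Control and 31.2 CPM in TNF. Group means of Col1a1, Col3a1, Dcn and Acta2 were at most 1.58 CPM. The 6 cholangiocyte markers summed to 96.3 to 203 CPM, and of 4 tested Sox9 rose (log2 0.58, blocked adjusted p = 7.67e-05) and none fell. Cldn4 was the highest of the 4, with means of 102.2 CPM in Control and 107.5 CPM in TNF. Of the 6 markers, 2 stayed under 1 CPM in every library. The part of these cells in the differences between libraries was not tested.

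Levels of different members were compared per kilobase of counted length. In Control, Serpina3k stood highest at 464 ± 71.2 CPM per kilobase, followed by Serpina1e at 413 ± 48.6, and these overlapped. After a gap came Serpina1b (104 ± 23.5) and Serpina3n (103 ± 35.3), then Serpina1c (79.7 ± 19.7) and Serpina1d (49.5 ± 12.0), with each neighbour in that run overlapping the next. Serpina1a (26.4 ± 7.51) and Serpina3m (25.8 ± 7.06) also overlapped each other. Serpina3c (0.0656 ± 0.0181) and Serpina3g (0.00575 ± 0.00681) lay far below. The order in TNF was the same. The places of the Serpina1 genes depend on how reads that fit several genes were treated, which is not stated. Of 100-base coding windows, 61.8% for Serpina1c and 57.8% for Serpina1a, but 19.1% for Serpina1e, occurred in another member. Counted length includes introns, and per kilobase of coding length 4 members took another rank: Serpina1e (3325 CPM per kilobase) came before Serpina3k (2683), and Serpina1c (645) before Serpina3n (626).

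Promoter windows from RefSeq (build GRCm38.p6, the same as mm10) were available for 8 of the 10 members. Serpina3k and Serpina3m had no window and were not searched. The 250 bases before each start were searched on both strands for short motifs of factors known for antiprotease genes. A match describes letters and no more, and the motifs were chosen with the changes above known. All 5 Serpina1 genes held GTTAAT, the half-site of the hepatocyte factor HNF1, on the gene's strand 11 to 78 bases before the start. Serpina3c held it on the other strand, 239 to 234 bases before its start. Of all 32851 promoter windows 6.43% held it. The surrounding 56 bases were identical in Serpina1a, Serpina1b, Serpina1c and Serpina1e, and the aligned parts of the upstream regions (189 to 250 columns) were 91.4% to 97.0% identical within the group. The stretch is shown for Serpina1a (chr12:103863625-103863680, minus strand) and Serpina1d (chr12:103773634-103773689, minus strand), 5′ to 3′ on the gene's strand with GTTAAT in capitals, because 4 of the 5 genes share it letter for letter.
Serpina1a: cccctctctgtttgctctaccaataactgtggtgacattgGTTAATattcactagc
Serpina1d: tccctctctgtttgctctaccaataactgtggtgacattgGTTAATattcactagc

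The start regions of Serpina3c and Serpina3n were 92.7% identical over 247 aligned columns, while Control levels were 0.0656 CPM per kilobase for Serpina3c and 103 for Serpina3n. Both held a glucocorticoid response element pattern (GNACA, any 3 bases, then TGTNC), found in 0.39% of all windows. Serpina3n also held a kappaB pattern (GGG, any 2 bases, then TTTCC), found in 1.41% of all windows, 171 to 162 bases before its start. At the aligned place Serpina3c reads GGAATTTTCC, which has A in place of the last G of GGG. Other spellings of a kappaB site were not searched. Serpina3g held the kappaB pattern and the STAT pattern TTCNNNGAA, which is found in 7.02% of windows. The C/EBP pattern TTNNGCAA, found in 9.56% of windows, was in Serpina1b, Serpina1d and Serpina1e. The stretches from 190 to 41 bases before the start are shown to set a high and a nearly silent paralog side by side, for Serpina3c (chr12:104153913-104154062, minus strand) and Serpina3n (chr12:104406518-104406667, plus strand). Both read 5′ to 3′ on the gene's strand, with matches to the glucocorticoid response element and kappaB patterns in capitals. The start used is that of the gene span in the authors' deposited table. The RefSeq gene spans reach further upstream, to base 104153929 for Serpina3c and 104406646 for Serpina3n, which lie within the stretches shown.
Serpina3c: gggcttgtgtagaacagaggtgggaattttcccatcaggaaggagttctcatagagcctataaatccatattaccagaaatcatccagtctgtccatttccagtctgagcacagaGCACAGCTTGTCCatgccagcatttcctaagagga
Serpina3n: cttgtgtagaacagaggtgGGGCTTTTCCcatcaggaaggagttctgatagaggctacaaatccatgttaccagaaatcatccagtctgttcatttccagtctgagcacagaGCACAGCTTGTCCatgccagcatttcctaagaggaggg

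The 10 members sit among other Serpina genes, and 22 Serpina genes of the table lie on chromosome 12. Of 5 further Serpina1 and Serpina3 paralogs in the table (Serpina1f, Serpina3a, Serpina3b, Serpina3i and Serpina3j) none had enough reads for testing. Of 8 other clade A serpins tested, 2 rose and 1 fell, where the blocked fit called 20.4% of all genes, and the unpaired limma and limma-voom fits called 0 of the 8 (0 also at an unadjusted p under 0.05). Serpina7, the thyroxine-binding globulin gene on chromosome X, rose (55.7 ± 47.4 to 105 ± 89.9 CPM, log2 0.93, blocked adjusted p = 7.50e-07, unpaired SE 0.74 and adjusted p = 0.914). Serpina12, which encodes vaspin, rose by 0.31 (adjusted p = 0.0128), and Serpina10, the inhibitor of coagulation factor Xa, fell by 0.28 (adjusted p = 0.000338). Serpina12 lies between the Serpina1 and the Serpina3 members. Of 8 non-serpin flanking genes tested, 1 rose and 4 fell, among them Ppp4r4 (log2 -0.67) and Clmn (log2 -0.43).

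**Figure D5:**
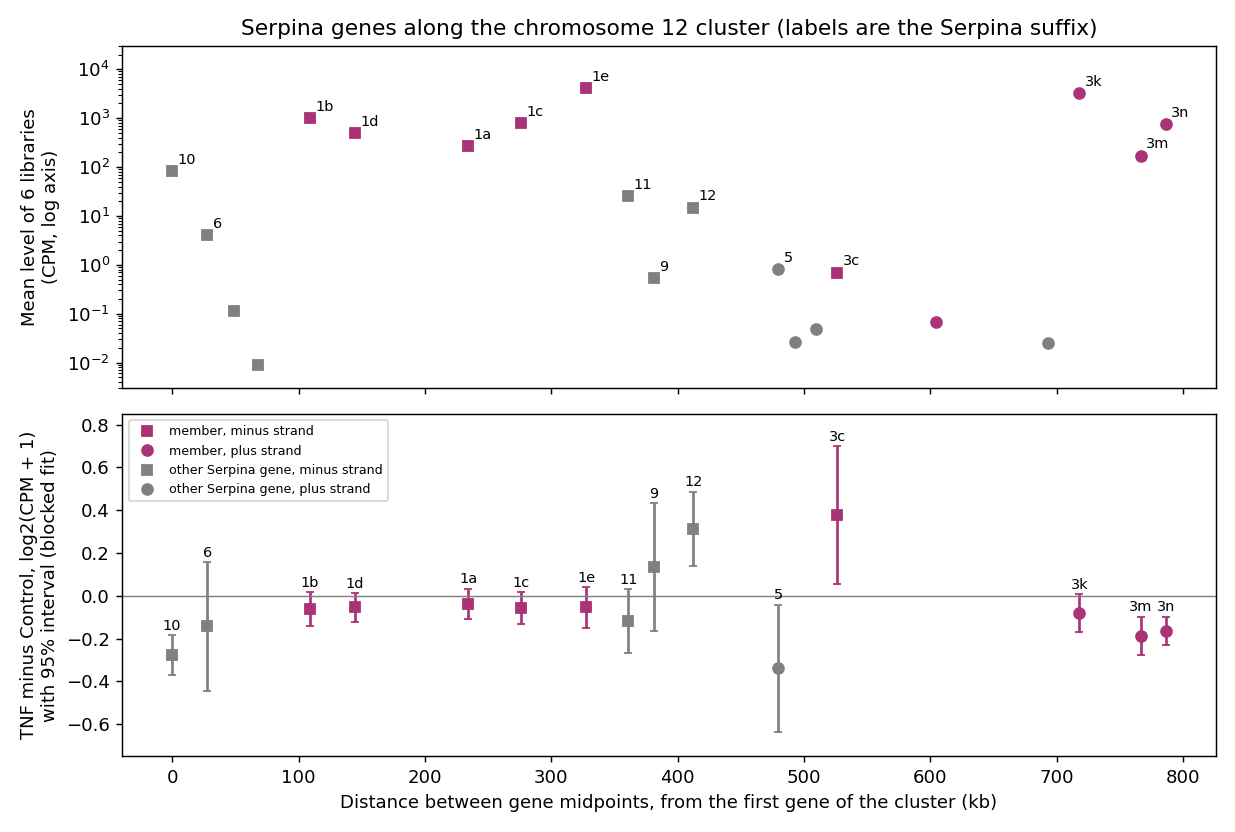
Serpina genes along chromosome 12 by distance between gene midpoints (kb), with the mean CPM of 6 libraries (top, log axis) and the TNF minus Control difference in log2(CPM + 1) with the 95% interval of the blocked fit for tested genes (bottom); members are purple, and squares and circles mark the strand. The 5 Serpina1 genes lie between -0.06 and -0.04, Serpina3m and Serpina3n lie at -0.19 and -0.16, and Serpina12, between both groups, at 0.31. Genes at 0 in all libraries are not drawn.

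Genes that act around the members were counted in the same blocked fit, which called 9.31% of all genes higher and 11.1% lower. Of 27 regulators of acute phase antiproteases, 10 rose and 5 fell, led by the NF-κB subunit genes Relb (log2 1.39) and Nfkb2 (log2 1.36), the oncostatin M receptor gene Osmr (log2 1.02) and the NF-κB inhibitor gene Nfkbia (log2 0.93). Relb and Nfkb2 were among 3 of these that also passed the unpaired test (adjusted p = 0.00761 and 0.00985). Of 26 genes for secretion and quality control of α1-antitrypsin, 3 rose and 4 fell, a share near that of all genes. Hspa5, a chaperone of the endoplasmic reticulum, rose by 0.24 and Pdia4, a disulfide isomerase there, by 0.19. Lrp1, a receptor that takes up serpin-protease complexes, fell by 0.40 (adjusted p = 1.53e-06) and Sec24a, a subunit of the coat of secretory vesicles, fell by 0.23. Of 11 protease genes tested, 1 rose (St14, log2 0.46) and 3 fell (Furin, Plg and Ctsl). Whether the members inhibit these proteases was not examined. Ctsg, Cma1, Mcpt4, Gzma, Gzmb and Klk1 of the same list had 0 reads in all libraries. Among serpins of other clades, Serpine2, which encodes protease nexin, rose (log2 0.41) and Serpinf2, the antiplasmin gene, fell (log2 -0.29). Of the 9 hepatocyte markers, 5 fell and none rose, led by Cps1 (log2 -1.43), Hnf4a (log2 -0.43) and Apoa1 (log2 -0.26), while Serpinc1, the antithrombin gene, fell by 0.16.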

How the data were processed

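Per the submitters' processing notes, STAR 2.6.1a and mm10 were used for the 6 polyA RNA libraries. The strand setting, the counter and what was done with multiply mapped reads are not stated. The authors deposited log2 CPM with a prior, sharing a floor of -3.35, and gene and counted lengths. Their own log2 fold change, likelihood ratio score and adjusted p-value per gene are also in the authors' deposited table, with no model stated, and the score was not used. After the floor was subtracted, 100.0% of 118584 values were whole reads within 0.001 reads. Library totals set the precision, and no pair of libraries was a duplicate (chi-square per degree of freedom 15.1 to 71.6).

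Values were tested as log2(CPM + 1) with limma 3.58.1 in R 4.3.3 (trended prior variance, two-sided, Benjamini-Hochberg over all 12375 genes with at least 10 reads in 3 libraries). The planned main test had group as its only term. Groups and replicate numbers came from the sample titles. Deviations from the group means correlated at 0.783, 0.787 and 0.792 for same-numbered libraries and -0.47 to -0.34 for others, values that follow in part from each other, so the numbers were taken as pairs and the blocked fit is printed beside the unpaired one. Tested on simulated data with the counts of this comparison, 12368 genes and no pair effect, both fits recovered 100% of 200 genes changed 2-fold. With a pair effect of SD 0.3 (12394 genes) the unpaired fit recovered 0% and the blocked fit 100%. Of the blocked calls, 3.8% were false without the pair effect and 4.8% with it. Changes as small as those of the abundant members were not simulated, so these recovery shares do not apply to them. The simulated counts had a fixed dispersion, and the change did not vary between pairs. Uneven differences such as those of Serpina3m were therefore not covered. Coding sequences were taken from GENCODE and promoter windows from RefSeq, and identities were computed with Biopython 1.88.

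The members and the gene lists were chosen with earlier results of these data known. Every member is named. Of each other list the text names up to 4 genes called in the blocked fit with the largest change. For the 3 tested members with the largest change it names the 2 tested genes nearest in centred log2 level. Alternatives covered the pseudocount, filter, scaling, limma-voom, the replicate block and leaving out libraries. The count for serpins of other clades is not reported here.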

Additional observations from a re-analysis of the deposited data

How the results depend on the processing

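With the replicate block, 2 members were lower under each of the 10 blocked settings, against 0 unpaired, and these were Serpina3m and Serpina3n each time. Leaving out 1 replicate number in the blocked fit gave adjusted p-values of 8.62e-07 to 0.0447 for Serpina3m and 0.00216 to 0.00788 for Serpina3n. With so few pairs left, these values rest mostly on the spread of genes of like abundance. They do not measure how evenly a gene's own pairs changed, and those of Serpina3m were uneven (-0.05, -0.28 and -0.23). The blocked log2 change of Serpina3m ran from -0.26 without replicate 1 to -0.14 without replicate 2. The block called no other member; for Serpina3c the blocked adjusted p ran from 0.0711 to 0.477, and a filter at 1 CPM left it untested. Leaving out 1 library in the unpaired fit broke the pairs, and the sign turned in 18 of 215 values over 24 settings, without Control replicate 2 or 3 or TNF replicate 1 or 2. The log2 change then ran from -0.25 to 0.18 for Serpina1a, -0.23 to 0.10 for Serpina1b, -0.28 to 0.12 for Serpina1c, -0.24 to 0.12 for Serpina1d, -0.144 to 0.0402 for Serpina1e, -0.209 to 0.0675 for Serpina3k, -0.380 to 0.0241 for Serpina3m and -0.42 to 0.10 for Serpina3n. No unpaired setting called a member. Per kilobase of coding length, an alternative chosen after seeing the data, 4 members changed rank; the planned length from protein sequences was not run. Group sums per kilobase gave the same differences. At this depth Serpina3g could not be tested.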
